A study of Mus musculus with 72 samples.

Results

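The livers of old male and female C57BL/6J mice kept on 20% caloric restriction were compared, 6 males with 6 females, on Illumina expression arrays. Of the 25697 probes on the array, 9012 belonged to the comparison: they lay in autosomal genes and had a detection p under 0.01 on at least 6 of these 12 arrays. They covered 6779 of the 16593 genes on the array. The labels name no hormone measurement, hormone treatment or surgery, so the groups are compared as the sexes. Male minus female is given throughout on the log2 scale, and a probe was called when its adjusted p was under 0.05 (limma with Benjamini-Hochberg adjustment over all 12150 probes tested).

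The series holds 72 mice: males and females of C57BL/6J (spelled C57BL/J in the strain entries) and DBA2/J, each fed ad libitum (AL) or restricted by 20% or 40% of food intake (CR), with 6 mice in each of the 12 groups. All mice were bred in house and carried no engineered allele named in the labels. The diets started when the mice were 6 months old and lasted 17 to 18 months, so the livers were taken at 23 to 24 months. On that day restricted mice of both sexes had not received their ration, while AL mice had food. The kill ran over 3 consecutive days, and which mouse was killed on which day is not given in the sources used here. RNA came from whole liver, in which fewer cells of a type and less RNA per cell cannot be told apart.

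Sex differences in rodent liver are known to follow the pattern of growth hormone release from the pituitary, which is pulsatile in males and more continuous in females. Growth hormone acts through its receptor and the kinase JAK2 on the transcription factor STAT5. Together with factors such as HNF6, BCL6 and CUX2 it sets the level of many cytochrome P450 enzymes, major urinary proteins and sulfotransferases, with sex steroids acting mainly through the pituitary. Food restriction and ageing are both known to affect growth hormone release.

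The sex labels held on all 12 arrays. The Y-linked Eif2s3y, a translation factor subunit, was detected on 6 of 6 male and 0 of 6 female arrays, with levels of 7.08 to 8.13 in males and 4.14 to 4.25 in females. Xist, the RNA of the inactive X chromosome, was detected on 0 male and 6 female arrays. Hepatocyte markers averaged 11.95 to 12.27 in males and 12.04 to 12.14 in females over 11 genes.

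A pair of male arrays stood apart. Male array 52 (numbers are those of the array columns) detected 34.9% of probes, against 38.4% to 42.5% on the other males and 35.8% to 39.1% on the females, and lay between the sexes on the first principal component of the members, at -0.4, with the other males at -24 to -12.6 and the females at 10.7 to 21.2. Male array 57 carried the highest mean level of 21 interferon-induced genes, at 7.33 against 5.54 to 6.12 on the other males and 5.63 to 5.88 on the females. It was also highest for genes of antigen presentation, at 8.03 against 6.92 to 7.51 on the other males and 6.80 to 7.16 on the females. Results that rest on either array are given with and without it.

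Of the 9012 member probes, 1275 (14.1%) were called: 716 (7.94%) were higher and 559 (6.20%) lower in males. Over all 12150 probes tested the shares were 13.1% in either direction, 7.73% higher and 5.38% lower. At 2-fold or more, 128 members (1.42%) were called, 81 (0.899%) higher and 47 (0.522%) lower in males, against 1.18%, 0.733% and 0.444% of all tested probes. The 6 male and 6 female arrays did not overlap for 567 members (6.29%), 314 higher (3.48%) and 253 lower (2.81%), against 5.84%, 3.38% and 2.45% of all tested probes. By gene, with the brightest probe standing for each, 503 were higher (7.42%) and 424 lower (6.25%), against 591 (7%) and 468 (5.54%) of all 8441 genes tested. The split of directions depended on the scaling: with background correction and median scaling in place of quantile normalization, 82.4% of called probes among all those tested were higher in males, against 58.9% in the analysis used here. Without male array 52, 1415 members were called (767 higher, 648 lower), and 1173 of the 1275 (92%) were among them; without male array 57, 1160 were called.

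The detection rule left its own edge. Of 270 autosomal probes detected on exactly 6 of the 12 arrays, just inside the rule, 157 were detected on more male arrays and 43 on more female arrays. Of 240 detected on exactly 5, just outside, the numbers were 169 and 71. Among the members, 19 probes were detected on all male and no female arrays and 4 the other way round. The 7247 members detected on all 12 arrays do not depend on this choice, and 1001 of them (13.8%) were called, 550 higher and 451 lower in males, a share near the 13.1% of all tested probes.

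**Figure D1:**
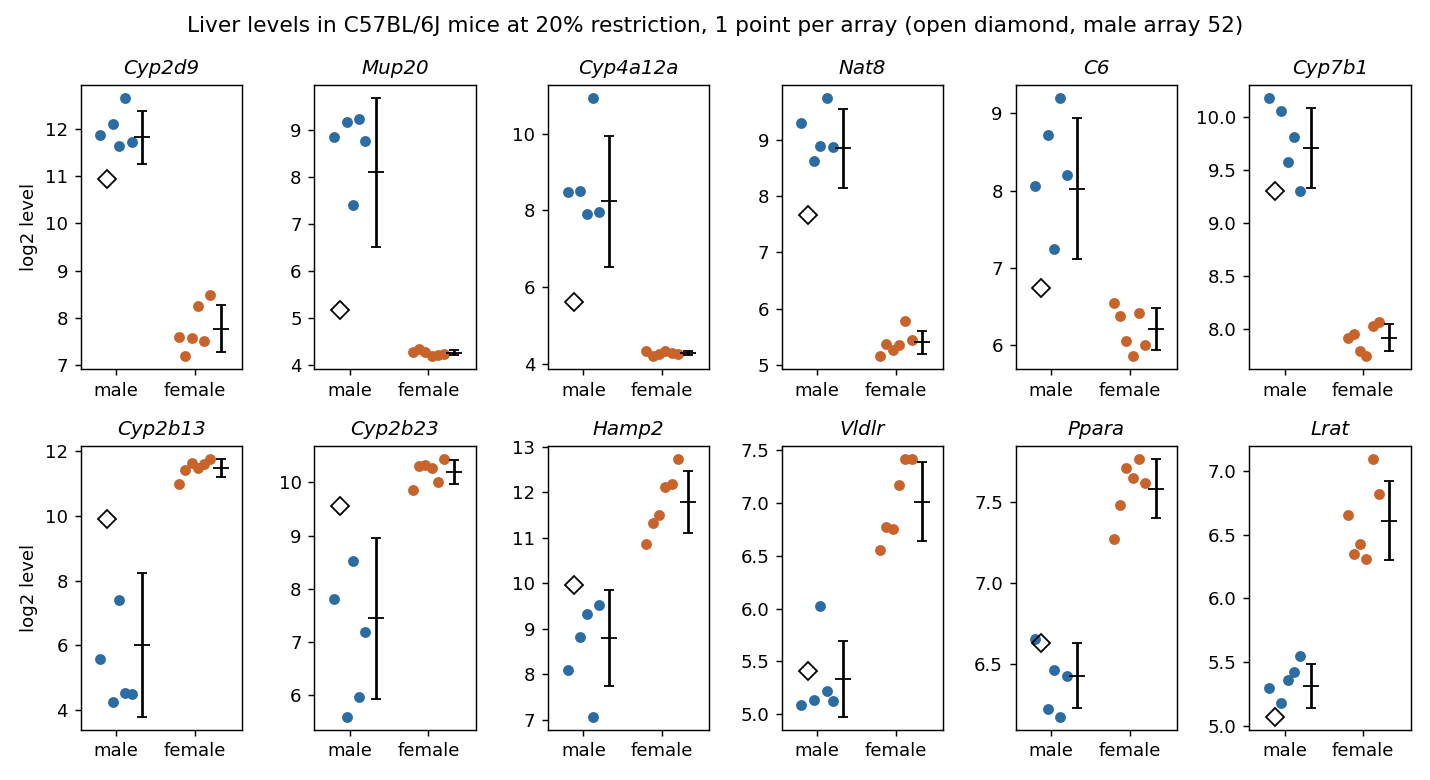
Normalized log2 level of 12 genes on each of the 12 arrays, males left of females, with points for arrays, an open diamond for male array 52 and bars for the mean ± SD of 6. The sexes do not overlap in any of these 12 genes, and male array 52 is the male nearest the females for Mup20, at 5.17, and for Cyp2b13, at 9.9.

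The genes with the largest male levels relative to females were major urinary proteins (Mup), cytochrome P450 enzymes and secreted inhibitors. Major urinary proteins are small pheromone-binding lipocalins made by the liver and passed into urine. All 5 Mup genes measured were higher in males, with a median log2 difference of 3.72, against -0.01 over all tested probes. Without male array 52 the median was 4.01, and all 5 were still called.

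Promoters of the 3 of these genes that RefSeq's table of promoter windows holds (assembly GRCm38.p6) are shown because their members moved together and share a motif. Each run is the 250 bases before the start site, 5′ to 3′ on the gene's strand; capitals mark ATTGAT on either strand (ATCAAT is its reverse complement), the core of the motif bound by HNF6, a factor known to act in liver sex differences. The windows are chr4:60139857-60140106 (minus strand) for Mup2, chr4:60003231-60003480 (plus strand) for Mup6 and chr4:62150842-62151091 (minus strand) for Mup21.
Mup2: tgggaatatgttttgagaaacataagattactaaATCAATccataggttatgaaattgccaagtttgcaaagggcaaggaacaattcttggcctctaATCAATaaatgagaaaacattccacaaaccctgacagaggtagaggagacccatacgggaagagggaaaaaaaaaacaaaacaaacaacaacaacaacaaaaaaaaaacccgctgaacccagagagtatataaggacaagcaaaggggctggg
Mup6: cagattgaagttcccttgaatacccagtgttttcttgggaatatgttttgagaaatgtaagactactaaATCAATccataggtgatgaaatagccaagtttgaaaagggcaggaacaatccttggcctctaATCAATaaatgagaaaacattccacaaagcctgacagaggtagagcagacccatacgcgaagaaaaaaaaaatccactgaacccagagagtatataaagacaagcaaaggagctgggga
Mup21: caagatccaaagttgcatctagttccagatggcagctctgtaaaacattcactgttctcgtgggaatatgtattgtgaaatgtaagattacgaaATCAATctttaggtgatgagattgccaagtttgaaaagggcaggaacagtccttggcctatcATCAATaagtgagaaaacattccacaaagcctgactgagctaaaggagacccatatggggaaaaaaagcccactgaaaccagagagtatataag
Relative to the start, the matches begin at -216 and -153 in Mup2, -181 and -119 in Mup6, and -156 and -94 in Mup21. At the best shift, Mup6 and Mup21 were identical at 76.4% of positions, Mup2 and Mup6 at 62% and Mup2 and Mup21 at 57.1%. All 14 Mup genes with a window in the table held at least 2 matches, and 0 held TTCNNNGAA (N is any base), the palindromic core of the STAT motif. ATTGAT occurred in 6.72% of all 32851 windows and in 3.92% of those of member genes. Its share was 4.28% (23 of 538) among genes higher in males and 5.16% (24 of 465) among genes lower in males, and 17.9% (10 of 56) and 8.33% (3 of 36) among those at least 2-fold higher and lower, where the 3 Mup windows are among the 10. TTCNNNGAA occurred in 7.02% of all windows, in 5.99% of those of member genes, in 5.76% and 4.3% of those of genes higher and lower in males, and in 4 of 56 (7.14%) of those of genes at least 2-fold higher. The 2 motifs were counted separately, and a match in letters is not evidence of binding.

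Mup2 had levels of 10.7, 11.49 and 12.55 (lowest, median, highest) in males, against 6.44, 7.22 and 9.58 in females, with no overlap. Its difference was 3.97 ± 0.74 (SE; adjusted p = 6.73e-05, limma). Female arrays 55 to 57 lay at 7.59 to 9.58 and female arrays 68 to 70 at 6.44 to 6.85; what the numbers stand for is not given in the sources used here. Mup6 lay at 9.78, 10.61 and 11.78 in males, against 6.15, 6.85 and 8.63 in females, a difference of 3.64 ± 0.66 (adjusted p = 5.22e-05, limma). Mup20, also known as darcin, the male pheromone that females recognise, lay at 5.17, 8.8 and 9.23 in males and was detected on 0 female arrays, where it measured 4.2 to 4.35. Its male level was at least 9.85-fold above the lowest signal that counts as measured on the female arrays (adjusted p = 1.95e-08, limma). The lowest male value was array 52's. Mup5 and Mup21 differed by 3.72 ± 0.52 and 2.23 ± 0.58, both without overlap (adjusted p = 2.38e-07 and 0.00488, limma). Mup genes are near-identical copies, so a probe can take up RNA of more than one, and the values by symbol are uncertain.

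Cyp2d9, a steroid 16-alpha-hydroxylase that is a standard marker of male mouse liver, lay at 10.95, 11.8 and 12.66 in males, against 7.19, 7.58 and 8.49 in females. It was 16.7-fold higher in males (4.06 ± 0.37, adjusted p = 2.87e-13, limma) and was detected on every array. Cyp4a12a, an androgen-inducible fatty acid hydroxylase, spread from 5.61 to 10.93 in males around a median of 8.23, against 4.21 to 4.35 in females, which were below detection. Its male level was at least 10.8-fold higher (adjusted p = 2.03e-06, limma), and the near-copy Cyp4a12b at least 4.06-fold higher (adjusted p = 1.29e-05, limma). The remaining 9 measured members of the Cyp4 family were not called. Cyp7b1, an oxysterol 7-alpha-hydroxylase, lay at 9.3, 9.7 and 10.18 in males, against 7.75, 7.94 and 8.07 in females, a difference of 1.78 ± 0.28 (adjusted p = 3.09e-06, limma).

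Nat8, an N-acetyltransferase, had the smallest adjusted p among the 12 largest male-higher genes, at 2.1e-17 (limma), with 7.66, 8.88 and 9.74 in males and 5.16, 5.37 and 5.78 in females. Its difference was 3.44 ± 0.25. Serpina1e, an alpha-1-antitrypsin form, spread widely in males, at 7.62, 9.73 and 11.78, against 5.9, 6.45 and 7.49 in females (3.09 ± 0.53, adjusted p = 1.85e-05, limma). Serpina12, known as vaspin, lay at 7.59, 8.78 and 9.61 in males, against 5.61, 6.56 and 6.67 in females (2.4 ± 0.38, adjusted p = 4.36e-06, limma). Asns, asparagine synthetase, a target of the amino acid stress response, was detected on 6 male arrays at 5.36 to 7.5 and on 0 female arrays, and was at least 3.29-fold higher in males (adjusted p = 0.000611, limma). None of these 4 genes had overlapping groups.

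The gene with the largest difference of all was lower in males: Cyp2b13, a phenobarbital-class cytochrome P450 known from female mouse liver. It lay at 4.26, 5.06 and 9.9 in males, against 10.98, 11.54 and 11.77 in females, with no overlap. Males were 44-fold lower (-5.46 ± 0.65, adjusted p = 4.6e-09, limma), although only 3 of 6 male arrays detected it. The male value of 9.9 was array 52's and the next 7.39 was array 56's; without array 52 the difference was -6.23 ± 0.61. Its near-copy Cyp2b9 lay at 6.82, 9.24 and 10.57 in males, against 10.4, 10.85 and 11.06 in females, where male array 52 reached into the female range. Cyp2b9 was lower in males (-1.93 ± 0.62, adjusted p = 0.0269, limma), a call that was lost without male array 53 (-1.51, adjusted p = 0.107), male array 57 (-1.62, 0.0907) or female array 70 (-1.88, 0.0514), under median scaling (-1.85, 0.0545) and with no filter on dim probes (-1.93, 0.0523).

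Promoter windows of this pair are shown because the genes differed in the size of their sex difference while their windows are nearly the same. Both lie on the plus strand of chromosome 7 in GRCm38.p6, at chr7:26061245-26061494 for Cyp2b13 and chr7:26173159-26173408 for Cyp2b9, and capitals mark the bases that differ.
Cyp2b13: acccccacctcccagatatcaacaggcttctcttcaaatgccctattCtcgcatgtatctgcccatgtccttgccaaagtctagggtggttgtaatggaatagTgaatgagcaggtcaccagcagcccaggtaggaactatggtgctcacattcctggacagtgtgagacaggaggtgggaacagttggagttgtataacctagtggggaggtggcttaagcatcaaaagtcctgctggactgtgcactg
Cyp2b9: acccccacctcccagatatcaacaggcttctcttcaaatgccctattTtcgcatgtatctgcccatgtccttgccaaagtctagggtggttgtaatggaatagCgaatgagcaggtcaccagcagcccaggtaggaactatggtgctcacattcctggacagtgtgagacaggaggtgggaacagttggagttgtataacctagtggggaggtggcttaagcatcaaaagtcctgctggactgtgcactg
They were identical at 248 of 250 positions (99.2%). The differences are C48T and T104C, with the base of Cyp2b13 first and that of Cyp2b9 last, positions counted from the first base shown, which places them 203 and 147 bases before the start. Neither window held ATTGAT or TTCNNNGAA. With the best shift and no gaps, Cyp2b13 was identical with Cyp2b23 at 65.6% of 224 positions and with Cyp2b10 at 50.2% of 249.

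Both other measured Cyp2b genes were lower in males too. Cyp2b23 lay at 5.59, 7.5 and 9.55 in males, against 9.85, 10.29 and 10.45 in females (-2.76 ± 0.54, adjusted p = 0.000173, limma). Cyp2b10, the gene classically induced through the receptor CAR, lay at 4.58, 4.81 and 6.25 in males, against 6.86, 7.08 and 7.62 in females (-1.98 ± 0.51, adjusted p = 0.00468, limma). In all 4 Cyp2b genes male array 52 had the highest male value and male array 56 the second highest. The copies are alike in sequence, so the values by symbol are uncertain here as well. Among 28 measured enzymes of P450 families 1 to 3, 5 were higher and 4, the Cyp2b genes, lower in males. The shares over all tested probes were 7.73% and 5.38%. The median difference of these 28 enzymes was -0.01.

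Hamp2, a copy of the gene for the iron hormone hepcidin, lay at 7.07, 9.08 and 9.96 in males, against 10.86, 11.81 and 12.74 in females, with no overlap (-2.99 ± 0.89, adjusted p = 0.0161, limma). Without male array 57 it was -2.64 and its adjusted p 0.0501. A1bg, a plasma glycoprotein of the immunoglobulin family, was detected on 0 male arrays, at 4.29 to 4.69, and on 6 female arrays, at 5.83, 6.6 and 8.02. It was at least 4.16-fold lower in males (adjusted p = 0.0101, limma), and its call was lost when background was not corrected (-1.44, 0.0592). The windows of both genes are shown because they hold the STAT core TTCNNNGAA, in capitals, which the Mup and Cyp2b windows above lack; in A1bg a match to ATTGAT is in capitals as well. They lie at chr7:30924182-30924431 (minus strand) for Hamp2 and chr15:60921271-60921520 (minus strand) for A1bg.
Hamp2: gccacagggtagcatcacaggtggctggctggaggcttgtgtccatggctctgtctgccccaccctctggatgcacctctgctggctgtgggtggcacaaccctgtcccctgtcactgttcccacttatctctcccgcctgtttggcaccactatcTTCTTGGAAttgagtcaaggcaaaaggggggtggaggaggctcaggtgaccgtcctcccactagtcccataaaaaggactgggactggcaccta
A1bg: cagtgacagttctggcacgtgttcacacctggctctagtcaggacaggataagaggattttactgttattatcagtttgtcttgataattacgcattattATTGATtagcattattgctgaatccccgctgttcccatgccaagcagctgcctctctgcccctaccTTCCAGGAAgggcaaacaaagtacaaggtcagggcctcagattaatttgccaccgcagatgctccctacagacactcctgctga
Relative to the start, the STAT core TTCTTGGAA begins at -94 in Hamp2, and TTCCAGGAA at -84 in A1bg. The core occurred in 3 of 36 windows (8.33%) of genes at least 2-fold lower in males, near the 7.02% of all windows. The window of Hamp held the same TTCTTGGAA, at -97. With the best shift it was identical with the Hamp2 window at 91.9% of 247 positions. Hamp was not among the 2 iron and heme genes called lower in males, Hamp2 and Id1. Hamp and Hamp2 are copies, so the values by symbol are uncertain here too.

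Other genes lower in males included transporters, a receptor and sugar-modifying or nucleotide enzymes. Vldlr, the very low density lipoprotein receptor, lay at 5.09, 5.18 and 6.02 in males, against 6.55, 6.97 and 7.42 in females (-1.68 ± 0.29, adjusted p = 1.52e-05, limma). Slc22a26, an organic anion carrier, spread from 4.75 to 8.6 in males around a median of 6.4, against 8.43 to 8.96 in females, with overlap at the edge (-2.41 ± 0.46, adjusted p = 0.000127, limma). St3gal6, a sialyltransferase, was tight in both sexes, at 5.61 to 6.38 in males and 7.5 to 7.91 in females (-1.82 ± 0.21, adjusted p = 2.77e-09, limma). Nt5e, the ecto-enzyme CD73 that makes adenosine from AMP, lay at 5.89, 6.5 and 7.61 in males, against 8.13, 8.39 and 8.66 in females (-1.79 ± 0.30, adjusted p = 1.45e-05, limma). The metal-binding metallothionein Mt1 lay at 11, 12.34 and 13.85 in males, against 13.52, 14.06 and 14.7 in females, with overlap (-1.66 ± 0.34, adjusted p = 0.000369, limma).

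The chemokine gene Cxcl1, whose product attracts neutrophils, was lower in males (-2.58 ± 0.78, adjusted p = 0.0172, limma). Male arrays 51 to 53 lay at 9.82, 10.83 and 11.08, within the female range of 9.9 to 12.59, while male arrays 56 to 58 lay at 6.38, 7.11 and 8.02, below it. Without male array 56 the adjusted p was 0.0839 (-2.08), and without male array 57 it was 0.0589 (-2.23). Neutrophil markers averaged 4.53 to 5.66 in males and 5.31 to 5.80 in females over 11 genes. Their 5 member genes had a median difference of -0.85, with 0 called and 2 at an unadjusted p under 0.05 (limma). S100a8 and S100a9 were detected on 6 male and 6 female arrays, and Mpo, Camp, Ngp and Cxcr2 on none of the 12. The part of neutrophils in the result was not tested.

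**Figure D2:**
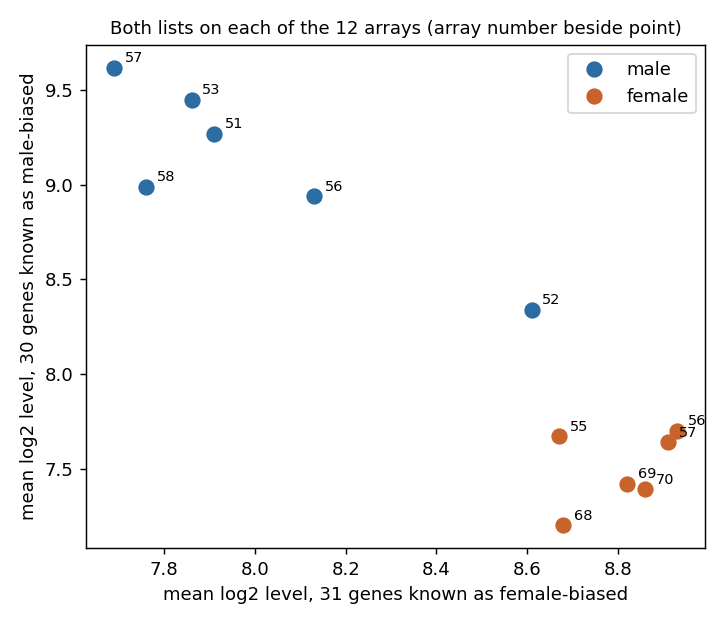
Mean log2 level of 30 genes known as male-biased in liver (vertical axis) against that of 31 genes known as female-biased (horizontal axis), 1 point per array, numbered by array. Male array 52 lies at 8.34 and 8.61, between the other males and the females.

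Lists of genes known from other work for their sex bias in mouse liver were read against the shares called over all tested probes, 7.73% higher and 5.38% lower. The shares of all tested probes without overlap of the sexes were 3.38% higher and 2.45% lower in males. Of 30 measured male-biased genes, 18 were higher and 0 lower in males, with a median of 1.24 and no overlap of the sexes for 16. Besides those above, they included C6, C8b, Susd4, Ugt2b1, Gstp1, Gstp2 and Bcl6. Of 31 measured female-biased genes, 9 were lower and 1 higher, with a median of -0.61 and no overlap for 7. The 9 were the Cyp2b genes of the list (Cyp2b9, Cyp2b10, Cyp2b13), A1bg, Hamp2, Slc22a26, Vldlr, Abcd2 and Gas6. The 1 higher was Cyp2c38, at 4.73, 5.02 and 5.55 in males and 4.3, 4.52 and 4.82 in females (0.57 ± 0.11, adjusted p = 8.42e-05, limma). The remaining 21 female-biased genes were not called, among them Cyp17a1, a steroid hydroxylase and lyase, at 5.48, 5.95 and 8.89 in males and 7.2, 7.69 and 9.28 in females (-1.49, adjusted p = 0.0561, limma). The male value of 8.89 was array 52's, and without it the difference was -1.97 with an adjusted p of 0.00702.

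The 2 lists also placed each array. Male array 52 averaged 8.34 on the male-biased genes, against 8.94 to 9.62 on the other males and 7.20 to 7.70 on the females. On the female-biased genes it averaged 8.61, against 7.69 to 8.13 on the other males and 8.67 to 8.93 on the females. Without it, the male-biased list still had 18 higher and 0 lower, with a median of 1.45. The female-biased list then had 1 higher and 10 lower, with a median of -0.59. Without male array 57 the male-biased list had 17 higher and 0 lower, and the female-biased list 1 higher and 8 lower.

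Genes of growth hormone signalling itself were called less often than those of the 2 lists, which hold genes already known as sex-biased. Of 27 measured members of this list, 1 was higher and 2 lower in males, with a median of -0.16. Over all tested probes 13.1% were called in either direction. The receptor Ghr (-0.1, adjusted p = 0.869, limma) and its kinase Jak2 (-0.01, 0.971) were not called, nor was Igf1, the growth factor it induces in liver, at 10.78 to 11.3 in males and 10.97 to 11.38 in females (-0.07, 0.743). The inhibitors that STAT5 itself induces were not called either: Cish differed by -0.92 (adjusted p = 0.153), Socs2 by -0.89 (0.215) and Socs3 by -1.51 (0.0801). Stat5a was lower in males, at 4.79, 5.42 and 5.92 against 5.45, 6.11 and 6.53 in females (-0.66 ± 0.17, adjusted p = 0.00374, limma), with overlap, and Stat3 was lower as well (-0.62 ± 0.19, 0.0161). Both calls were lost under median scaling (adjusted p = 0.064 and 0.106), where 2 genes of the list, Bcl6 and Ptpn1, were higher and 0 lower. A second Stat5a probe gave -0.23 (adjusted p = 0.249), and Stat3 was also lost without female array 55 or 56 or male array 56 (0.0654, 0.0527 and 0.0716).

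Bcl6, a repressor known to be higher in male liver, was called as higher in males (1.31 ± 0.41, adjusted p = 0.0218, limma), but its values fell into separate ranges within the males. Male arrays 56 to 58 lay at 8.98, 8.91 and 8.45, while male arrays 51 to 53 lay at 7.11, 6.32 and 6.2, beside females at 6.09 to 6.48. Without male array 56, 57 or 58 the adjusted p was 0.1, 0.0887 or 0.0652. These are the same 3 male arrays that were low for Cxcl1. Cux2, a factor known to be higher in female liver, lay at 4.67 to 6.26 in males and 6 to 6.34 in females and was not called (-0.61, adjusted p = 0.194).

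Steroid receptors and enzymes that convert steroids gave 1 higher and 1 lower of 15 measured members, with a median of -0.04. Over all tested probes 7.73% were higher and 5.38% lower. The estrogen receptor Esr1 lay at 5.04 to 6.01 in males and 4.71 to 5.77 in females and was not called (-0.03, adjusted p = 0.947, limma). Akr1c14, a 3-alpha-hydroxysteroid dehydrogenase, was higher in males (0.95 ± 0.21, adjusted p = 0.000672, limma). Hsd3b7, an enzyme of bile acid synthesis, was lower (-0.56, 0.0361), a call lost under median scaling (adjusted p = 0.301) and without each of 6 single arrays (0.0602 to 0.113). Hsd3b5, a classic male-specific steroid dehydrogenase of mouse liver, was detected on 0 of 12 arrays.

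**Figure D3:**
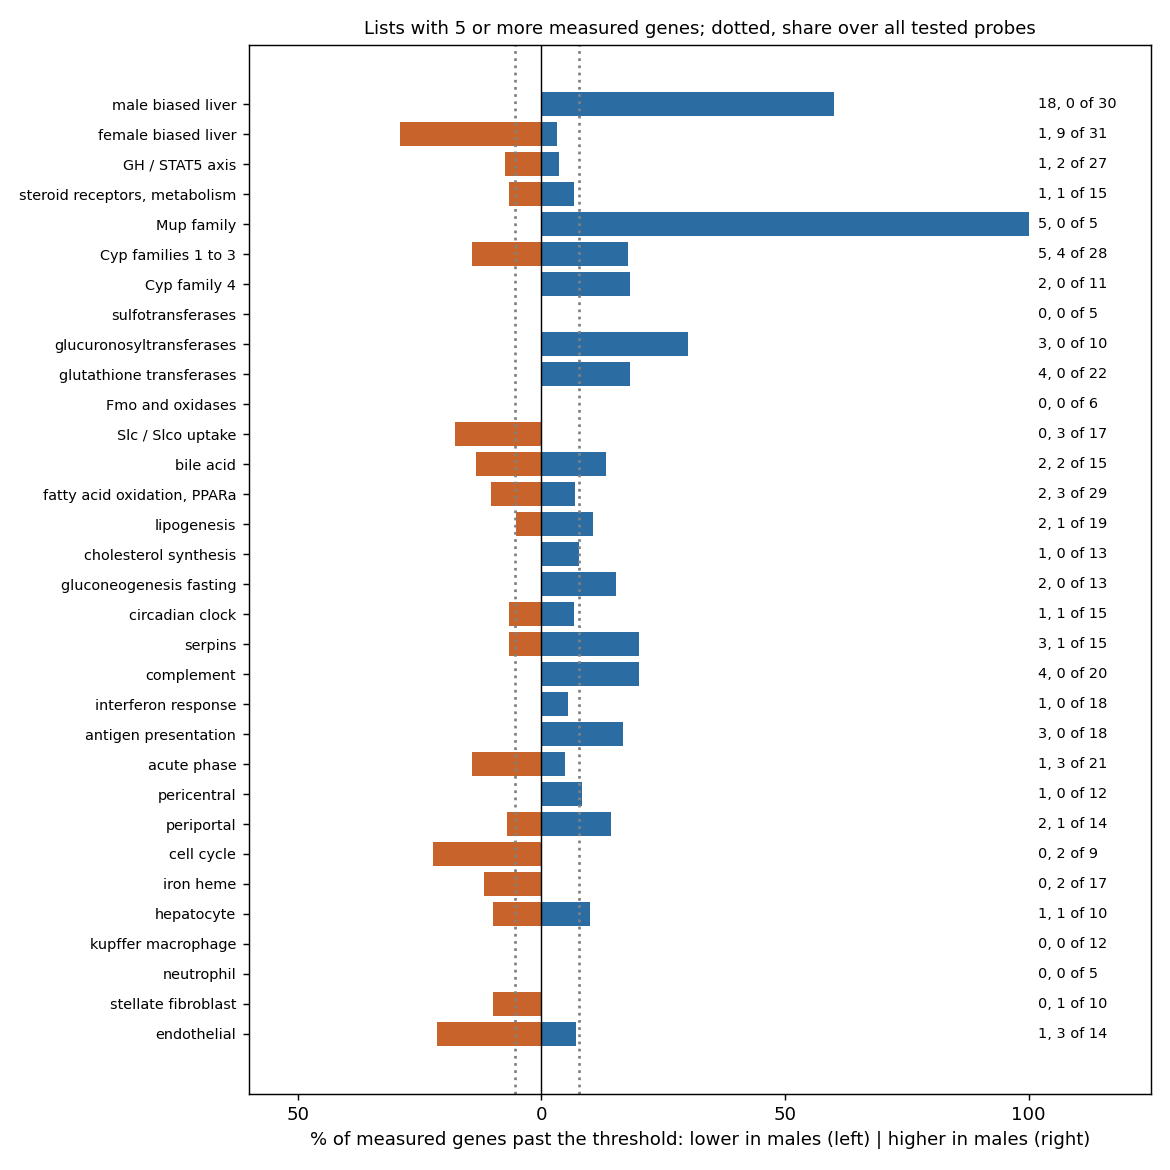
Percent of the measured genes in each list that were called, lower in males to the left and higher in males to the right, for lists with 5 or more measured genes; dotted lines mark 7.73% and 5.38%, the shares of all tested probes. Of genes known as male-biased, 18 of 30 were higher, and of genes known as female-biased, 9 of 31 were lower. The list labelled Slc / Slco uptake holds organic anion and cation carriers of the hepatocyte, Abcc2 among them.

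Calls among conjugating enzymes, oxidases and carriers were few. They are read against 7.73% higher and 5.38% lower over all tested probes. Glucuronosyltransferases had 3 higher and 0 lower of 10, with Ugt2b1 at 7.92 to 9.23 in males and 7.29 to 7.66 in females (1.17 ± 0.25, adjusted p = 0.000717, limma). Glutathione transferases and glutathione synthesis had 4 higher and 0 lower of 22, led by Gstp2 (1.36 ± 0.32, 0.00181) and Gstp1 (1.17 ± 0.25, 0.000567), which are near-identical copies. The medians of both lists were small, at 0.2 and 0.09. Without male array 57 the glutathione list had 3 higher. Of 5 sulfotransferase genes, which conjugate steroids and drugs, 0 were called by limma and 2 had an unadjusted p under 0.05. For 6 flavin monooxygenases and oxidases the counts were 0 and 1, with the brightest probe standing for each gene. A dimmer probe of the monooxygenase Fmo5 was called higher in males (0.86 ± 0.29, adjusted p = 0.0362, limma). Hao2, a hydroxyacid oxidase known from female liver, was detected on 5 female arrays and so fell just outside the rule, at 4.2 to 4.38 in males and 4.66 to 6.16 in females. Organic anion and cation carriers of the hepatocyte had 0 higher and 3 lower of 17: Slc22a26, the carnitine carrier Slc22a5 and Abcc2. The call of Slc22a5 (-0.9 ± 0.24, adjusted p = 0.00522, limma) was lost under median scaling (0.0775). That of Abcc2 (-0.43, 0.0462) was lost under median scaling and without each of 9 single arrays, with 0.0679 without male array 52. A second Abcc2 probe had the opposite sign and was not called (0.2, adjusted p = 0.511, limma).

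Calls in the metabolic lists are read against 7.73% higher and 5.38% lower over all tested probes. Of 29 genes of fatty acid oxidation and PPAR-alpha targets, 2 were higher and 3 lower in males, with a median of -0.36. Ppara itself, the nuclear receptor that drives the fasting response to fatty acids, lay at 6.17, 6.44 and 6.65 in males, against 7.27, 7.64 and 7.77 in females (-1.16 ± 0.17, adjusted p = 4.05e-07, limma), with no overlap. Pck1, the key enzyme of gluconeogenesis, lay at 7.19, 7.73 and 8.56 in males, against 5.71, 6.19 and 6.69 in females (1.55 ± 0.21, adjusted p = 1.53e-07, limma). It was 1 of 2 higher genes among 13 of glucose production, with 0 lower and a median of -0.16. Lipogenesis had 2 higher and 1 lower of 19, and cholesterol synthesis 1 higher of 13. Bile acid synthesis and its control had 2 higher and 2 lower of 15, and the circadian clock 1 higher and 1 lower of 15. Under median scaling the calls were 1 higher and 1 lower for fatty acid oxidation, 2 and 0 for lipogenesis, 2 and 0 for bile acids and 1 and 0 for the clock.

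The following counts stand beside 7.73% higher and 5.38% lower over all tested probes. Complement genes had 4 higher and 0 lower of 20, with a median of 0.2. C8a lay at 7.15, 8.1 and 9.13 in males, against 4.73, 5.84 and 7.03 in females (2.16 ± 0.35, adjusted p = 5.43e-06, limma), and C6 at 6.74, 8.13 and 9.2 in males, against 5.86, 6.22 and 6.54 in females (1.82 ± 0.30, 7.66e-06). Both encode parts of the membrane attack complex. Complement factor Cfb was higher by 0.94 ± 0.18 (adjusted p = 0.000124, limma), without overlap. Serpins had 3 higher and 1 lower of 15, and 3 and 0 under median scaling or without male array 57. Acute phase proteins had 1 higher and 3 lower of 21, and 0 and 2 without male array 57. Among the lower was Fga, the fibrinogen alpha chain (-0.57, adjusted p = 0.00686, limma). Its call was lost without male array 56 (-0.43, adjusted p = 0.0537) and in a fit of only the arrays compared (0.0907). It was also lost with the scores deposited by the authors (0.414). Iron and heme genes had 2 lower of 17, and 1 without male array 57. Cell cycle genes had 2 lower of 9, and 1 under median scaling.

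Antigen presentation had 3 higher and 0 lower of 18, with a median of 0.28. Interferon-induced genes had 1 higher of 18, with a median of 0.26. Over all tested probes 7.73% were higher and 5.38% lower. The interferon-induced gene called was Ifi27 (0.84, adjusted p = 0.0044, limma), and its call was lost under median scaling (adjusted p = 0.0527). The class I gene H2-D1 lay at 7.08, 7.33 and 8.1 in males, against 5.85, 5.94 and 6.39 in females, with no overlap (1.43 ± 0.21, adjusted p = 1.03e-06, limma). The class II gene H2-Aa overlapped (6.92 to 8.81 in males, 6.12 to 7.41 in females; 1.32 ± 0.41, 0.0201), and its adjusted p was 0.0669 without male array 57 and 0.0768 without male array 51. Without male array 57 the medians of the 2 lists were 0.16 and 0.01, and without male array 52 the interferon list had 3 higher, with a median of 0.36. Kupffer cell and macrophage markers averaged 7.96 on male array 57, against 7.27 to 7.70 on the other males and 7.03 to 7.60 on the females, and 0 of their 12 member genes were called (1 at an unadjusted p under 0.05, limma); their part in these results was not tested.

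Lists of the other cell types are small, and their counts are read against 7.73% higher and 5.38% lower over all tested probes. Hepatocyte markers had 1 higher (Apoh) and 1 lower (Ahsg) of 10, with a median of 0.02. The call of Ahsg (-0.31, adjusted p = 0.0226, limma) was lost under several alternatives. Among them were median scaling (0.139) and leaving out male array 56 (0.128) or 57 (0.0954). A second Ahsg probe had the opposite sign and was not called (0.34, adjusted p = 0.0869, limma). Endothelial markers had 1 higher and 3 lower of 14, with a median of -0.23 and mean levels of 6.36 to 6.51 in males and 6.50 to 6.81 in females; under median scaling 0 of the 14 were called. Stellate cell and fibroblast markers had 1 lower of 10. That was Lrat, which stores vitamin A as retinyl esters in stellate cells, at 5.07, 5.33 and 5.55 in males and 6.31, 6.55 and 7.1 in females (-1.3 ± 0.16, adjusted p = 2.41e-08, limma). The whole stellate list averaged 6.04 to 6.95 in males and 6.36 to 6.77 in females, and its part in the difference of Lrat was not tested. The pericentral hepatocyte genes had 1 higher of 12 and the periportal genes 2 higher and 1 lower of 14. Markers of B, T and NK cells, bile duct, red cells, fat and exocrine pancreas had 1 or 2 member genes each, with 0 called by limma and 1, of the pancreas list, at an unadjusted p under 0.05.

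The sex difference at 20% restriction was next set against that of C57BL/6J mice fed AL or at 40% restriction and of DBA2/J mice at 20% restriction. No array is shared between these differences. The share of members called was 14.1% at 20% restriction in C57BL/6J, against 10.8% (974) with food AL, 5.56% (501) at 40% restriction and 36.3% (3269) in DBA2/J. Over all tested probes the shares were 13.1%, against 9.51%, 5.30% and 33%. The median size of the difference was 0.17 on the log2 scale, against 0.16, 0.14 and 0.25.

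**Figure D4:**
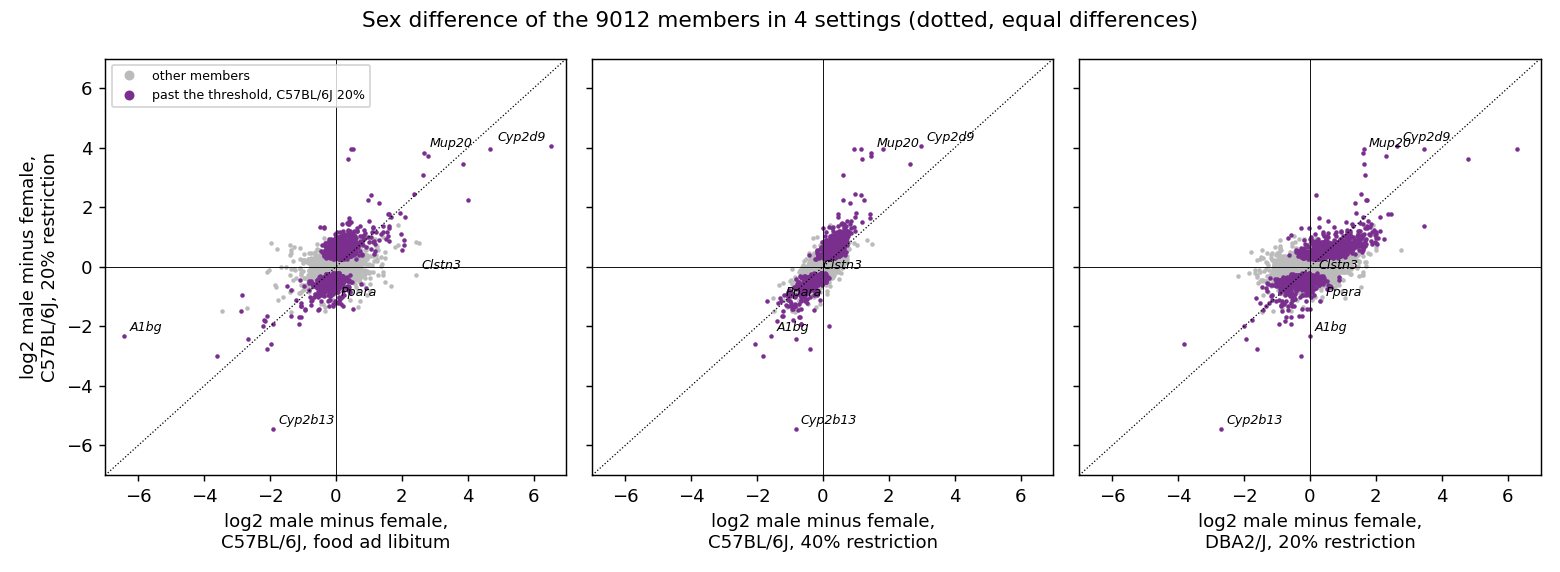
Male minus female log2 difference of each member probe in C57BL/6J at 20% restriction (vertical axis) against that in C57BL/6J fed AL, C57BL/6J at 40% restriction and DBA2/J at 20% restriction (horizontal axes), with the 1275 members called at 20% restriction in colour. The points lie closest to a common trend at 40% restriction, and Cyp2b13, at -5.46, lies far below the line of equal differences in each panel.

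With food AL the order of differences across members was only loosely alike (Pearson's r = 0.455 across probes, which are not independent). Of the 1275 members called at 20% restriction, 73% had the same sign with food AL, against 58.9% of all members, and 244 were called in both, which is 19.1% of one list and 25.1% of the other. The test of the difference itself called 358 members (3.97%), 155 (1.72%) positive and 203 (2.25%) negative; over all tested probes the shares were 3.41%, 1.64% and 1.77%. That total of 414 tested probes was 562 without male array 52, 218 without male array 51 and 245 when only the arrays compared entered the fit.

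Several named genes had a larger sex difference at 20% restriction than with food AL. Ppara averaged 6.42 in males and 7.58 in females at 20% restriction, against 5.96 and 5.98 with food AL (-1.14 ± 0.23, adjusted p = 0.00265, limma). Lrat gave -1.2 ± 0.23 (0.00126). Both calls were kept without each single array and lost under median scaling (adjusted p = 0.087 for Ppara and 0.125 for Lrat). Pck1 gave 1.16 ± 0.30 (0.0183), lost without male array 51 (0.99, adjusted p = 0.0604). Mup2 averaged 11.62 in males and 7.64 in females at 20% restriction, against 13.65 and 13.13 with food AL, so its difference was 3.46 ± 1.04 larger at 20% restriction (adjusted p = 0.0454, limma). That call was lost without each of 8 single arrays (adjusted p up to 0.0879). Mup6 gave 3.29 ± 0.94 (0.0348), lost without each of 4 single arrays (up to 0.076), and H2-D1 gave 1.02 ± 0.30 (0.0409), lost without each of 7 (up to 0.0816).

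Other genes had the larger difference with food AL. Cyp2d9 averaged 11.83 in males and 7.77 in females at 20% restriction, against 11.67 and 5.14 with food AL, a change of -2.47 ± 0.52 (adjusted p = 0.00291, limma). Clstn3, a calsyntenin, averaged 5.41 in males and 5.67 in females at 20% restriction, where it was not called, against 7.2 and 4.77 with food AL (-2.69 ± 0.39, 1.84e-05). Both calls were kept without each single array. A1bg averaged 4.41 in males, where it was not above background, and 6.76 in females at 20% restriction, against 5.01 and 11.43 with food AL. Cyp7a1, the rate-limiting enzyme of bile acid synthesis, averaged 10.14 in males and 9.34 in females at 20% restriction, a difference that was not called (0.8, adjusted p = 0.386), against 8.55 and 10.52 with food AL, where males were lower (-1.97, 0.0152). Its test between the diets gave 2.76 ± 0.79 (0.0338), lost without each of 3 single arrays (up to 0.0751). Of the female-biased genes, 9 were lower in males at 20% restriction, with a median of -0.61, against 20 and -1.07 with food AL. Over all members, 6.59% were higher and 4.22% lower in males with food AL, and over all tested probes 5.56% and 3.96%. The male-biased list had 18 higher at 20% restriction, with a median of 1.24, against 16 and 1.32 with food AL.

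Of the 17 named genes called in the test against AL, 9 were called without each single array, 11 without male array 51 and 11 under median scaling.

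Cyp2b13 had a larger difference at 20% restriction than in each of the other 3 settings. Its means in males and females were 6.03 and 11.49 at 20% restriction, against 5.54 and 7.45 with food AL, 9.82 and 10.66 at 40% restriction, and 7.48 and 10.19 in DBA2/J at 20% restriction. The test of the difference between settings gave -3.55 ± 0.92 against AL (adjusted p = 0.0179), -4.63 ± 0.92 against 40% restriction (0.0168) and -2.75 ± 0.92 against DBA2/J (0.0428, limma). The call against AL was kept without each single array and lost when only the arrays compared entered the fit (adjusted p = 0.0601). The call against 40% restriction was lost without male array 53, 57 or 58 (0.0757, 0.0554 and 0.0728), under median scaling (0.0719) and in a fit of only the arrays compared (0.137). The call against DBA2/J was lost without each of 9 single arrays (0.0518 to 0.0948) and under median scaling (0.0677). Without male array 52 the values were -4.32, -5.4 and -3.52, all called.

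At 40% restriction the pattern across members was closer (r = 0.731 across probes). Of the 1275, 95.6% had the same sign, against 73.3% of all members, and 307 were called in both, 24.1% of one list and 61.3% of the other. The test of the difference called 3 of 9012 members (0.0333%), with 521 at an unadjusted p under 0.05; over all tested probes 3 (0.0247%) were called, and 0 under median scaling. Beside Cyp2b13 these were Pa2g4, a proliferation-associated RNA-binding protein (0.82 ± 0.15, adjusted p = 0.00533), and, chosen after its values were seen, 1 of 3 probes of Trip12, a ubiquitin ligase (0.79, 0.00533). Both were kept without each single array and lost under median scaling (0.832 and 0.129). The male-biased list had 18 higher with a median of 1.24 at 20% restriction, against 3 and 0.48 at 40%, where 2.57% of all members were higher and 2.98% lower, and 2.74% and 2.56% of all tested probes. Mup20 averaged 8.1 in males at 20% restriction, against 5.73 at 40%, and was detected on 0 female arrays at either.

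In DBA2/J mice at the same restriction, 86.1% of the 1275 had the same sign, against 63.7% of all members (r = 0.528 across probes). Both strains called 728, 57.1% of the C57BL/6J list and 22.3% of the DBA2/J list. The test of the difference called 999 members (11.1%), 477 (5.29%) positive and 522 (5.79%) negative; over all tested probes 1248 (10.3%) were called, 5.10% positive and 5.17% negative, with 4318 under median scaling and 829 without male array 51. Ppara and Serpina12, which differed by -1.16 and 2.4 in C57BL/6J, were detected on none of the 12 DBA2/J arrays, so no DBA2/J difference could be measured for them. Mup20 averaged 8.1 in C57BL/6J males and 5.83 in DBA2/J males, where 3 of 6 arrays detected it, and was detected on 0 female arrays of either strain. Hal, histidine ammonia lyase, differed by -0.69 in C57BL/6J, where it was not called, and by 1.54 in DBA2/J (-2.23 ± 0.37, 5.8e-05). Hsd17b6, a steroid dehydrogenase, differed by 0.57, not called, and by 2.77 (-2.2 ± 0.53, 0.00538). Both calls were kept under every alternative tried. The median of the male-biased list was 1.24 in C57BL/6J and 1.37 in DBA2/J, and that of the female-biased list was -0.61 and -0.4. In DBA2/J 17.3% of all members were higher and 19% lower in males, and 15.7% and 17.2% of all tested probes.

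**Figure D5:**
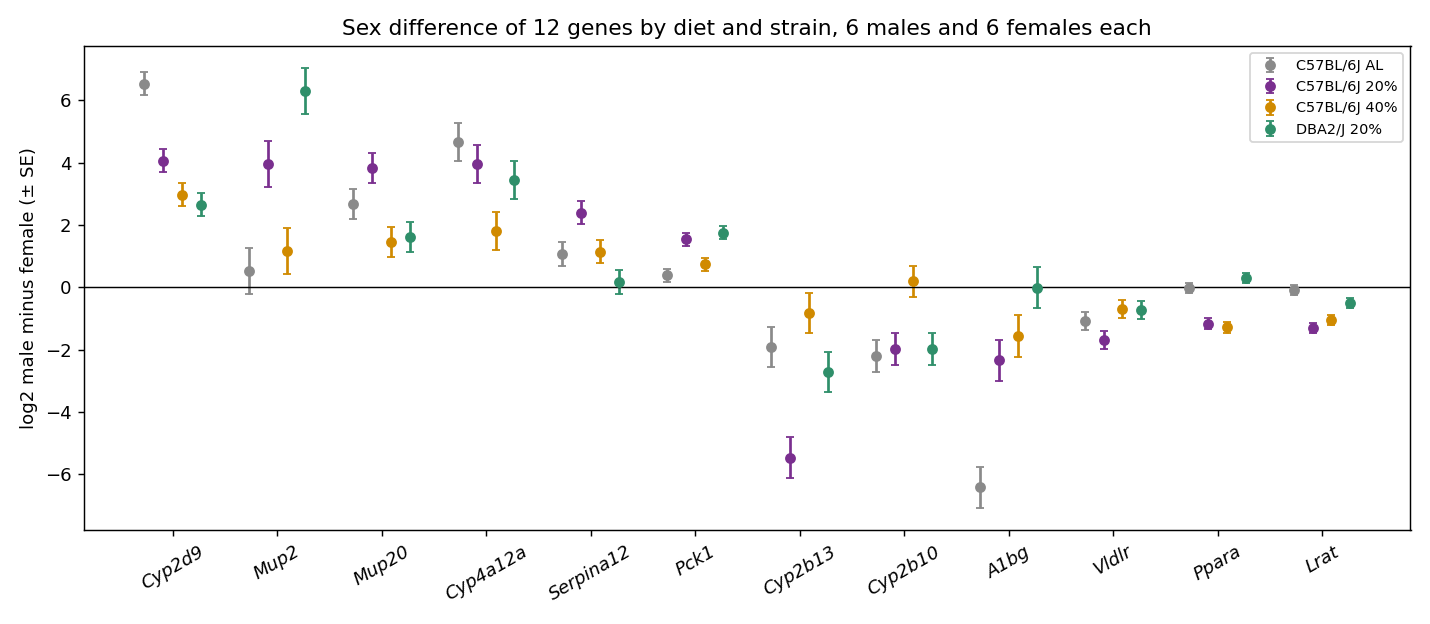
Male minus female log2 difference (± SE from the limma fit, 6 males and 6 females per setting) of 12 genes in C57BL/6J fed AL, at 20% and at 40% restriction and in DBA2/J at 20% restriction. Mup2 has 0.52, 3.97, 1.16 and 6.3 in that order, and Cyp2b13 -1.91, -5.46, -0.83 and -2.71. Points of Mup20, Cyp4a12a, A1bg, and of Ppara, Serpina12, Vldlr and Lrat in DBA2/J, include groups not above background and are fitted values, not measured differences.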

How the data were processed

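Whole-liver RNA of 72 mice was hybridised to 1-colour Illumina mouse expression arrays, 1 array per mouse. The authors deposited, per the file headers, a table of probe intensity with a detection p-value for each array, not normalized, and another table, of scores; GenomeStudio 2011.1 is named in the submitters' processing notes. The deposited score of each of the 72 arrays equalled the z-score of log10 intensity on that array within 1e-06. Genes and chromosomes came from the platform annotation, updated by gene ID through RefSeq (GRCm38.p6): 23978 probes had 1 symbol, 1719 had none, 0 symbols changed, and 23963 had a chromosome.

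Background was corrected by normexp from the detection p-values, followed by an offset of 16, quantile normalization and log2 (neqc of limma 3.58.1, R 4.3.3). A probe was tested when its detection p was under 0.01 on at least 6 of the 72 arrays. One linear model with 12 group means was fitted to all arrays, sharing 1 estimate of the spread, and limma's moderated test with Benjamini-Hochberg adjustment over all 12150 probes gave the adjusted p, called under 0.05. Sex differences between settings were tested as contrasts of 4 group means. The brightest probe stood for each gene in lists and names; a probe not detected in a whole sex was given as at least N-fold against the lowest signal well above background. Of 1659 member genes with several member probes, 69 had all probes past the threshold, 379 had some, and 5 had probes past it in both directions (Etfa, Ldah, Plpp1, Rbm18, Rpf1). Levels of different probes are not comparable. No counting depth exists for arrays, and precision is limited by 6 mice per group. P-values measure the spread between these mice.

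Genes were named by rule: the 12 largest called differences in each direction, up to 4 genes with the largest called difference between settings in each direction, the 3 smallest p in each list, and all genes of the hormone lists. Of 41 lists (791 genes), 12 hold cell type markers. The members and lists were chosen with earlier results of these data known. Sex was read from titles, because the source names of male samples repeat the female code, and 1 DBA2/J male at 40% restriction carries the strain entry of the other strain. Arrays are called by the number in their column name. The scripts were tested on simulated data. Same-numbered males and females correlated in their deviations at -0.169 to 0.35, over 0.1 in 3 of 6 pairs, so the numbers were not taken as pairs. The alternatives changed background correction, scaling, filter, arrays fitted, variance model, kind of value and the block, and left out each array. All 72 value columns were mapped to groups.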

Additional observations from a re-analysis of the deposited data

Results flagged for a closer look

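Single arrays lay far from the 5 others of their sex in 15 of 289 groups of 6 arrays examined against Dixon's critical value, in 14 genes. Chance flags about 1 in 20 groups, so this number is near what chance gives. Among males these were Igfbp2 (9.28), Slc37a4 (6.04), H2-Q7 (9.75) and the interferon regulator Irf7 (7.84) on array 57, Slc22a5 (7.01) and Clock (6.06) on array 58, Vldlr (6.02) on array 56 and Zhx2 (5.08) on array 53. Among females they were Socs3 (10.38) and the flavin monooxygenase Fmo5 (10.3) on array 70, Irf7 (5.58) on array 55, Mup21 (6.51) and Esr1 (4.71) on array 68, Cyp2f2 (10.03) on array 69 and Retnlg (6.04) on array 56.

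The male minus female difference at 20% restriction in C57BL/6J was larger than with food AL, by the test of the difference, for A1bg (4.08), Mup2 (3.46), Mup6 (3.29), Cyp7a1 (2.76), Pck1 (1.16), the complement factor Cfb (1.07), H2-D1 (1.02), Apoh (0.75), the steroid and fatty acid enzyme Hsd17b12 (0.72) and Cyp2c38 (0.68); a positive value can also be a smaller female excess, as in A1bg. It was more negative, or less positive, for Cyp2b13 (-3.55), Clstn3 (-2.69), Cyp2d9 (-2.47), the glutamate carrier Slc17a8 (-1.86), Lrat (-1.2), Ppara (-1.14) and Clock (-0.72).

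Against 40% restriction the values were -4.63 for Cyp2b13, 0.82 for Pa2g4 and 0.79 for Trip12, of which 2 further probes gave 0.12 and 0.16.

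Against DBA2/J at the same restriction, positive values were found for Depp1 (2.3), Serpina12 (2.23), Mup20 (2.21), the magnesium carrier Slc41a2 (1.85), Nat8 (1.81) and Cyp2c38 (0.54). Negative values were found for Cyp2b13 (-2.75), Hal (-2.23), Hsd17b6 (-2.2), the lipolysis inhibitor G0s2 (-2.13), Gstp2 (-2.11), Ppara (-1.46), Mt1 (-1.41), Cfb (-1.32), Serpina1a (-1.21), St3gal6 (-1.05), Hadh (-0.81), Lrat (-0.81), the scavenger receptor Stab1 (-0.69) and Apoh (-0.61). Fitted values include groups in which the probe was detected on no array for A1bg and Cyp2c38 against AL, Trip12 against 40% restriction, and Mup20, Nat8, Serpina12, Hadh, Cyp2c38, Lrat and Ppara against DBA2/J, and are not measured differences there.

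Not all of these calls held when 1 array was left out. Past the threshold in all 12 such fits were 9 of 17 genes against AL, 2 of 3 against 40% restriction and 14 of 20 against DBA2/J. Under median scaling 11, 0 and 11 were past it, and without male array 51 there were 11, 3 and 16. Mt1 (adjusted p = 0.0497) and G0s2 (0.0442) against DBA2/J were each lost without 8 single arrays. Apoh against DBA2/J was 0 under median scaling (adjusted p = 0.991, limma), and none of the other named calls between settings changed sign.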

How the results depend on the processing

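No named gene called in the main fit or in an alternative changed direction in its sex difference between them. Genes called in neither could change sign, as Foxa1 did (-0.09, and 0.01 without male array 52). Of the 24 genes with the largest differences, 19 were past the threshold under every alternative; Cyp2b9, Cxcl1 and Hamp2 were lost without single arrays, Cyp2b9 also under median scaling and with no filter on dim probes, Mt1 with the authors' z-scores in a fit of only the 2 groups, and A1bg without background correction. Median scaling gave 853 tested probes (150 lower in males) and 614 members (113 lower), and tests between settings of 214 (AL), 0 (40% restriction) and 4318 (DBA2/J); the cause was not tested. Keeping probes detected on all 12 arrays, so fewer probes tested, gave 622 tested probes higher and 1 for 40% restriction. Without background correction 68 members passed at 2-fold and 5 probes against 40% restriction, where the authors' z-scores also gave 5. Against AL, no filter on dim probes gave 271 and fitting only the arrays compared gave 245. With the replicate number as a block (z-scores, only the groups compared) the counts were 895 tested (527 higher, 368 lower), 779 members (445, 334), 68 against AL and 0 against 40%; the same fit without the block, chosen after seeing the data, gave 1110 (646, 464), 918 (511, 407), 133 and 1. Leaving out 1 array gave 1190 to 1760 tested (713 to 1019 higher, 477 to 741 lower), 953 to 1415 members (550 to 767, 403 to 648), 110 to 160 at 2-fold, 218 to 562 against AL, 2 to 5 against 40% and 829 to 1517 against DBA2/J. Of the 17, 3 and 20 named calls between settings, 5, 0 and 14 (AL, 40% restriction, DBA2/J) were past the threshold with the block, against 7, 1 and 13 in the same fit without it. Probes detected on exactly 6 of the 12 arrays had a median log2 level of 4.74, against 6.88 for those detected on all 12, and 18.1% and 13.8% were called.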
